A study of Canis lupus familiaris with 2 samples.

Results

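The small heat shock proteins HSPB1, HSPB7 and HSPB8 and the co-chaperone BAG3 were examined on 2 Affymetrix arrays of the dog, whose short oligonucleotides are grouped into probe sets that each measure 1 transcript or a few related ones. All probe sets that the platform annotation assigns to one of these 4 genes were taken, which gave 6 of the 1628 probe sets and 4 of the 823 named genes in the deposited table. HSPB8 was read by 3 probe sets and the other genes by 1 each. The first array held RNA from the lenti-miR-206 group, in which lentiviruses that overexpress miR-206 were injected into the left superior fat pads of the heart. The second held RNA from the lenti-control group, whose fat pads were injected with a control lentivirus carrying a scramble sequence according to the methods. Both were mongrel dogs of either sex that underwent a left thoracotomy, and neither the labels nor the methods state the age of these groups. Tissue was taken 2 weeks after infection, as the methods state for both groups and the label for lenti-miR-206. According to the methods the lenti-control dogs had no atrial tachypacing, and the lenti-miR-206 pool was read as dogs without it because its label mentions none, although a group with both also existed. Equal amounts of RNA from 3 dogs were pooled for each array, so there is 1 array per group, the spread between dogs is unknown, and no difference below was tested. The cell types that the virus reached were not examined on these arrays, and miR-206 itself is not read by them.

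Small heat shock proteins bind proteins that have begun to unfold and hold them in a state that other chaperones can refold or pass on for degradation. In heart and skeletal muscle, where contraction strains the filaments, BAG3 couples HSPB8 to chaperones of the HSP70 family at the Z-disc, and damaged filamin is handed to autophagy along this route, known as chaperone-assisted selective autophagy. HSPB1 is found in many tissues and associates with actin filaments, whereas HSPB7 is found mainly in heart and skeletal muscle. The fat pads hold the ganglia of the left atrium within adipose tissue that lies on atrial muscle, so RNA of muscle and of fat can both be present in a sample.

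The values are log2 intensities from RMA, a method that removes background, brings the arrays to a common scale and gives 1 value per probe set. The table lists only probe sets whose values were at least 2-fold apart, a log2 difference of 1, and the 4 genes were selected on these same intensities. Their differences are therefore a description of the values that chose them. Over the table, 1223 of 1628 probe sets (75.1%) were higher in the lenti-miR-206 pool. Bacterial transcripts added as spike-in controls were listed with 13 probe sets, at a median log2 difference of -1.08 and a lowest of -1.17, where a difference is always the lenti-miR-206 value minus the lenti-control value. The 5 listed control probe sets for canine GAPDH lay between 1.16 and 1.43, with a median of 1.31. The 2 control references were thus 2.38 apart on the log2 scale, or 5.22-fold, and controls with smaller differences would not be listed.

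All 6 probe sets of the 4 genes were higher in the lenti-miR-206 pool, with log2 differences between 1.07 and 2.89 and a median of 1.35. The median over all 1628 probe sets was 1.21. HSPB7 and 1 of the HSPB8 probe sets, 2 of the 6, were higher by 3-fold or more, as were 24.5% of all probe sets. HSPB7 had the largest difference of the 4 genes, and BAG3, HSPB1 and HSPB8 followed within a narrow range when each gene was represented by its probe set with the highest mean. HSPB7 lay 1.40 above BAG3, BAG3 lay 0.29 above HSPB1, and HSPB1 lay 0.072 above HSPB8. The differences of the 3 HSPB8 probe sets covered a range of 0.56, so the order of BAG3, HSPB1 and HSPB8 depends on the probe set. This range is cut short by the 2-fold limit of the table and holds no spread between dogs, and the order of the 4 genes, HSPB7 included, has no replicate check.

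**Figure D1:**
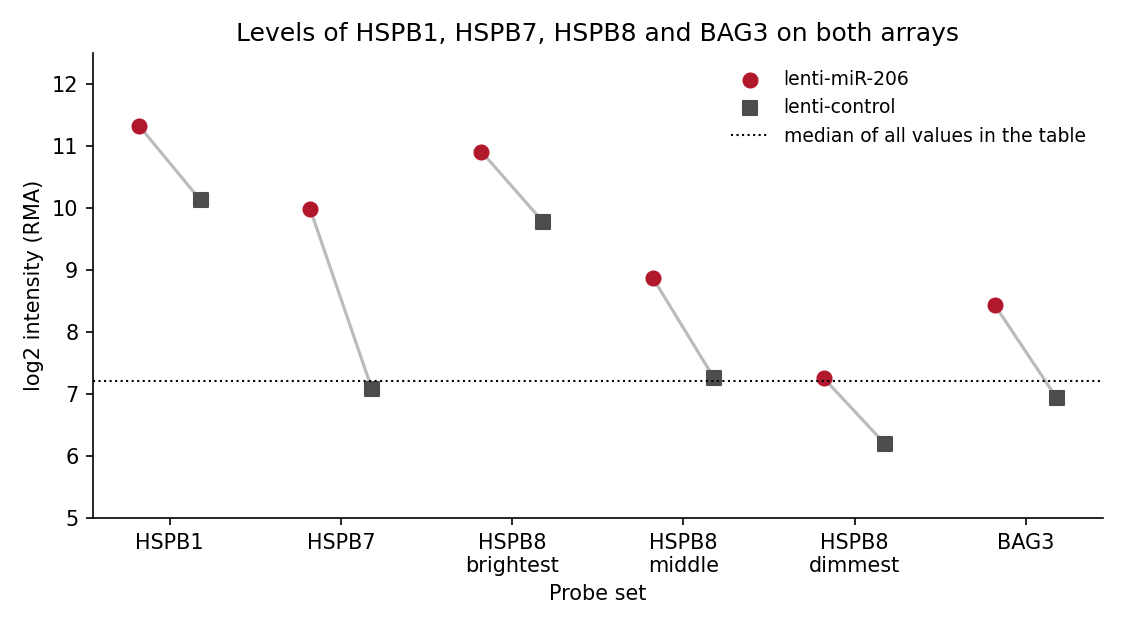
Log2 intensity (y axis) of each probe set of HSPB1, HSPB7, HSPB8 and BAG3 (x axis) on the lenti-miR-206 array (red circles) and the lenti-control array (grey squares), 1 pool of 3 dogs each, with a line joining the values of a probe set and a dotted line at the median of all values in the table (7.21). Every probe set was higher in the lenti-miR-206 pool, and the steepest line is that of HSPB7, at 9.98 in the lenti-miR-206 pool and 7.09 in the lenti-control pool.

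HSPB7, the small heat shock protein of heart and skeletal muscle that binds filamin C, reached 9.98 in the lenti-miR-206 pool, against 7.09 in the lenti-control pool, as log2 intensities. On the linear scale these are intensities of 1013 in the lenti-miR-206 pool and 136 in the lenti-control pool, a difference of 7.44-fold. Only 14 of the 1628 probe sets had a larger log2 difference than this one. Its lenti-control value lay slightly below the median of all values in the table, 7.21, and its lenti-miR-206 value 2.78 above it. The lenti-control value of HSPB7 was thus near the middle of the listed values. Without detection calls it is not shown to be above background.

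BAG3, the co-chaperone that binds HSP70 through its BAG domain, had log2 intensities of 8.43 in the lenti-miR-206 pool and 6.94 in the lenti-control pool. The log2 difference was 1.49, or 2.81-fold, and the linear intensities were 345 in the lenti-miR-206 pool and 123 in the lenti-control pool. Of all probe sets in the table, 473 had a larger difference. BAG3 was read by 1 probe set, so its value has no second reading.

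HSPB8, the partner of BAG3, is the only gene of the 4 for which several probe sets can be compared. Its brightest probe set had log2 intensities of 10.91 in the lenti-miR-206 pool and 9.78 in the lenti-control pool, a difference of 1.13, or 2.19-fold. The middle probe set, annotated to the HSPB8 reference transcript, had 8.88 in the lenti-miR-206 pool and 7.26 in the lenti-control pool, a difference of 1.62, or 3.08-fold. The dimmest, whose suffix s_at marks probes that can hybridize to several transcripts, had 7.26 in the lenti-miR-206 pool and 6.19 in the lenti-control pool, a difference of 1.07, or 2.09-fold. All 3 probe sets were higher in the lenti-miR-206 pool and their order by brightness was the same on both arrays, but the size of the difference did not follow the brightness. The fold of the middle probe set was 1.47 times that of the dimmest. The dimmest one also had the smallest difference of the 6, just inside the 2-fold limit of the table, and probe sets of these genes outside that limit are not analysed here, so the agreement between probe sets may be overstated. With the middle probe set instead of the brightest, HSPB8 would stand above BAG3 in the order of the genes.

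HSPB1, also called HSP27, had log2 intensities of 11.33 in the lenti-miR-206 pool and 10.13 in the lenti-control pool. The difference was 2.30-fold, or 1.20 on the log2 scale, with linear intensities of 2573 in the lenti-miR-206 pool and 1118 in the lenti-control pool. This lies close to the median of all probe sets, with 822 of them showing a larger difference. HSPB1 was read only by a probe set with the suffix s_at, so its value may hold signal of related transcripts.

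The direction of HSPB1, of HSPB8 and of BAG3 depended on the level taken as unchanged. BAG3 turned lower only relative to the median of the cardiomyocyte genes given further below, at -0.20. Relative to the median of the GAPDH controls, HSPB7 kept a log2 difference of 1.59, or 3.01-fold higher. BAG3 was at 0.18, or 1.14-fold higher, and its deposited difference of 1.49 lay just above that of the highest GAPDH control, 1.43. HSPB1 turned to -0.10 and the brightest HSPB8 probe set to -0.18, so that HSPB1 lay inside and this HSPB8 probe set just below the range of the GAPDH controls themselves. The HSPB8 probe sets split, with the middle one at 0.32 and the dimmest at -0.24. With this reference 3 of the 6 probe sets were higher, against 41.3% of all probe sets in the table. GAPDH is an enzyme of glycolysis that muscle expresses strongly, and it is not shown to be an unchanged level.

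Relative to the spike-in controls each of the 6 was higher, as were 78.4% of the listed probe sets. The spike-in median is below 0, so every probe set listed as higher stays higher here, and this reference is no check of direction. HSPB7 then had a log2 difference of 3.97, or 15.7-fold. BAG3 had 2.57, HSPB1 2.28 and the 3 HSPB8 probe sets between 2.14 and 2.70. Of the control references only the GAPDH controls could have turned a member lower. HSPB7 stayed higher there, by 3.01-fold, its smallest among the deposited, GAPDH and spike-in values. The step at which the spike-in transcripts were added is not given in the sources used here, so they too are not shown to be an unchanged level.

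**Figure D2:**
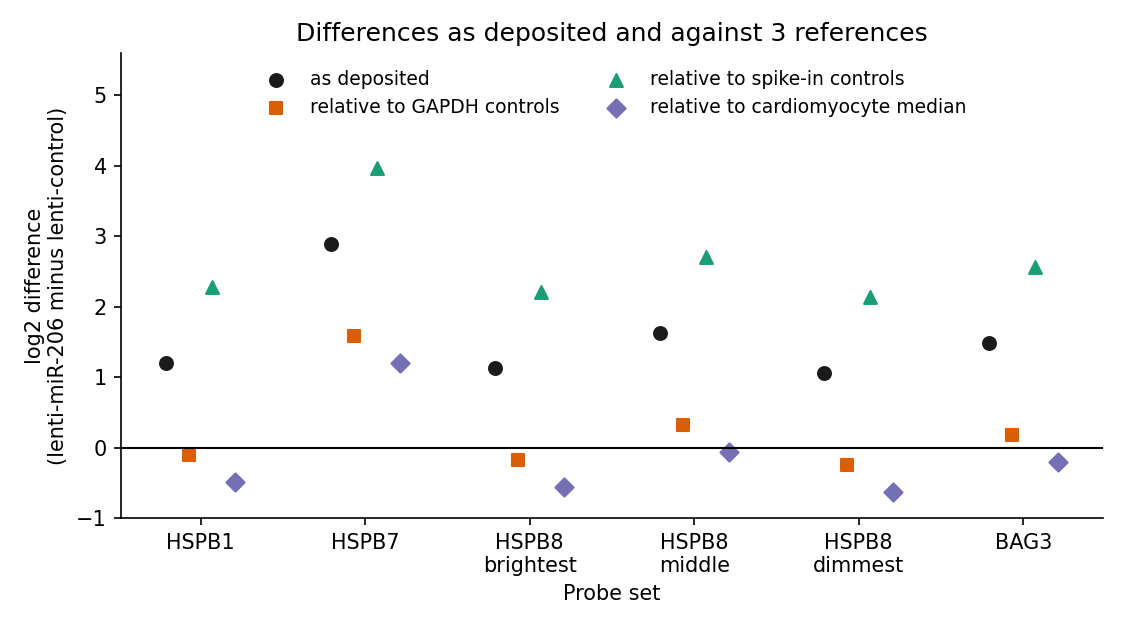
Log2 difference of the lenti-miR-206 from the lenti-control pool (y axis) for each probe set (x axis), as deposited (black circles) and relative to the median of the GAPDH controls (orange squares), of the spike-in controls (green triangles) and of 22 cardiomyocyte marker genes (purple diamonds). HSPB7 stays above 0 with each of them, and the other 5 probe sets lie between -0.62 and 0.32 with the GAPDH and cardiomyocyte references.

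Transcripts of heart muscle cells were higher in the same pool. The marker counts that follow stand beside 611 higher (74.2%) and 212 lower genes among all 823 in the table. Of 30 cardiomyocyte marker genes 22 were in the table and all 22 were higher in the lenti-miR-206 pool, at a median of 1.69 on the log2 scale, or 3.22-fold, and their summed linear intensity was 158457 in the lenti-miR-206 pool and 55423 in the lenti-control pool. The natriuretic peptide NPPB (2.83) and MYOZ2, a Z-disc protein (2.46), had the highest values, and the heavy chain MYH7 (1.17) and the atrial light chain MYL7 (1.18) the lowest. None of the 12 skeletal muscle markers was in the table, while 4 of 14 smooth muscle markers were, all higher, with a median of 1.58. Adipocyte markers were lower in 14 of the 15 cases in the table (of 23 listed), with a median of -1.65, and their summed linear intensity was 15367 in the lenti-miR-206 pool and 51406 in the lenti-control pool. CIDEA (-2.87) and the fatty acid synthase FASN (-2.74) had the lowest values, and UCP1 (2.07), the uncoupling protein of brown fat, was the exception, followed by the glycerol channel AQP7 (-1.02). Some markers of each tissue were bright in both pools. The fat cell protein FABP4 had 12.80 in the lenti-miR-206 pool and 14.20 in the lenti-control pool. The light chain MYL4 had 13.93 in the lenti-miR-206 pool and 12.58 in the lenti-control pool. Others were dim, with cardiomyocyte markers down to 4.21 in the lenti-control pool and adipocyte markers down to 5.53 in the lenti-miR-206 pool. Markers of fibroblasts (5 of 12 in the table, median -1.31) and neurons (5 of 14, median -2.56) were lower throughout. The 1 endothelial marker of 10, MMRN1 (-1.15), was lower too, and the 1 macrophage marker of 9, LYZ, was higher (1.13). The neuron markers lay between 3.30 and 6.08 in the lenti-miR-206 pool. MMRN1 had 4.57 in the lenti-miR-206 pool and 5.72 in the lenti-control pool. These dim values are not shown to be above background. In such pools more cells of a type and more RNA per cell cannot be told apart, and the part of these shifts in the chaperone values was not tested.

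Set against the cardiomyocyte genes, HSPB7 stood above and the other genes stood below the median. This median holds only the 22 of 30 markers that passed the 2-fold limit, all of them higher. Markers with smaller differences are missing from it, and the reference was chosen after seeing the data. The ranks below are therefore only among the listed markers. HSPB7 had a larger log2 difference than each of the 22 cardiomyocyte genes in the table, 1.21 above their median. Relative to that median BAG3 was at -0.20, and 7 of the 22 genes had smaller differences. HSPB1 was at -0.48, with 2 genes below it, and the brightest HSPB8 probe set was at -0.56, with none below it. The middle HSPB8 probe set was at -0.06 and the dimmest at -0.62, so the rank of HSPB8 depends on the probe set. Of all listed probe sets 20.1%, and of all genes 15.7%, lay above this median.

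The other small heat shock proteins in the table were higher as well. Of 8 listed, 3 were in the table, with a median log2 difference of 1.87, and each remained above the GAPDH median. Over all 823 genes the median was 1.17, with 74.2% higher and 36.8% above the GAPDH median. CRYAB, the alpha B-crystallin of lens and heart that binds desmin, had 11.02 in the lenti-miR-206 pool and 9.08 in the lenti-control pool, a difference of 1.94. HSPB3, which forms a complex with HSPB2 in muscle, differed by 1.87 with its brighter probe set and by 2.24 with the other. HSPB2 differed by 1.32 with its brighter and 1.91 with its other probe set, and it lies next to CRYAB in the genome annotation, whereas HSPB1, HSPB7, HSPB8 and BAG3 lie on 4 different chromosomes. Among the 8 genes of the annotation whose symbol begins with HSPB, 5 were in the table, and HSPB7 had the largest difference of the 5. HSPB3 with either probe set and CRYAB thus also exceeded BAG3, HSPB1 and each HSPB8 probe set.

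**Figure D3:**
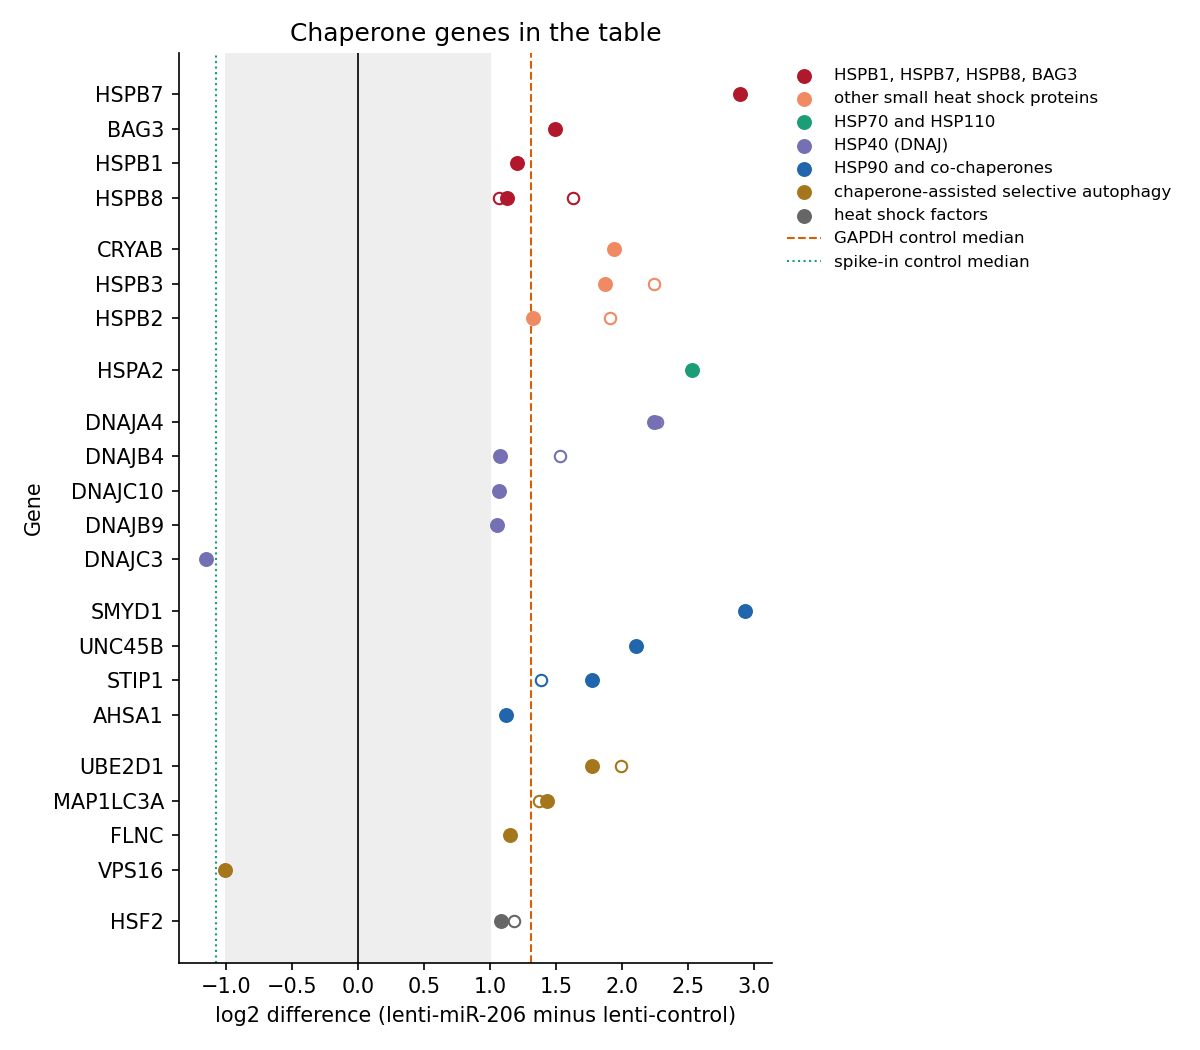
Log2 difference of the lenti-miR-206 from the lenti-control pool (x axis) for the 4 genes and 18 further chaperone genes in the table (y axis), with filled points for the probe set of highest mean, open points for other probe sets of the gene, a grey band where the table holds no values, and lines at the medians of the GAPDH (dashed) and spike-in (dotted) controls. HSPB7 at 2.89 and SMYD1 at 2.93 lie farthest to the right, and DNAJC3 and VPS16 are the only genes to the left of 0.

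Some partners of BAG3 and HSPB8 were in the table and others were not. A gene can be absent because its difference was smaller than 2-fold or because no probe set reads it. The share of all genes on the array that passed the 2-fold limit was not counted. The counts of listed genes in the table, here and below, are therefore no result about these families. From the lists of chaperones and their helpers 104 genes were drawn beside the 4, 99 of them under that symbol in the RefSeq annotation, and 18 were in the table. Of these, 16 were higher and 2 lower, with a median log2 difference of 1.38, against 74.2% higher and a median of 1.17 over all 823 genes. Relative to the GAPDH controls 10 of the 18 were higher, against 36.8% of all genes. None of the 5 other BAG family genes and none of the 15 chaperonin and prefoldin genes was in the table. Of 16 HSP70 and HSP110 genes, the family to which BAG3 couples HSPB8, only HSPA2 was, known mainly from testis, with 7.08 in the lenti-miR-206 pool and 4.55 in the lenti-control pool. Its difference of 2.53 rests on a dim lenti-control value that is not shown to be above background.

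Among the HSP40 proteins, which deliver clients to HSP70, 5 of 21 listed genes were in the table. Of these 4 were higher, against 74.2% of all 823 genes. DNAJA4 stood out with 2.24 and 2.26 for its 2 probe sets. DNAJB4 had 1.07 and 1.53, and DNAJC10 and DNAJB9, both of the endoplasmic reticulum, had 1.06 and 1.05. With their brighter probe sets these 3 genes turn lower relative to the GAPDH controls. DNAJB9 was dim, with 5.45 in the lenti-miR-206 pool and 4.40 in the lenti-control pool. These 2 values are not shown to be above background. DNAJC3, an inhibitor of the stress kinase PERK in the endoplasmic reticulum, was lower, with 6.09 in the lenti-miR-206 pool and 7.25 in the lenti-control pool.

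HSP90 and its helpers made up a list of 16 genes, of which 4 were in the table. All 4 were higher, against 74.2% of all 823 genes. SMYD1, a methyltransferase of heart and skeletal muscle needed for myosin assembly in zebrafish, had 7.82 in the lenti-miR-206 pool and 4.89 in the lenti-control pool, a difference of 2.93, and this lenti-control value is dim and not shown to be above background. UNC45B, the myosin chaperone of striated muscle, differed by 2.11. STIP1, which links HSP70 to HSP90, differed by 1.77 with its brighter and 1.39 with its other probe set, and AHSA1, an activator of HSP90, differed by 1.12 and turns lower relative to the GAPDH controls.

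From the 19 genes of chaperone-assisted selective autophagy 4 were in the table. UBE2D1, a ubiquitin-conjugating enzyme, was higher by 1.77 and 1.99 with its 2 probe sets, and MAP1LC3A, a protein of the autophagosome membrane, by 1.43 and 1.37. FLNC, the muscle filamin that is a client of BAG3, had 7.93 in the lenti-miR-206 pool and 6.79 in the lenti-control pool, a difference of 1.15, close to that of the brightest HSPB8 probe set and below 0 relative to the GAPDH controls. VPS16, a protein of vesicle fusion, was lower, by -1.01, and turns higher relative to the spike-in controls. Among 4 genes for heat shock factors and their binding protein only HSF2 was in the table, with 1.08 and 1.18 for its 2 probe sets, the second at a dim 4.81 in the lenti-miR-206 pool and 3.63 in the lenti-control pool.

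With 2 arrays the only measure of a like pattern is the nearness of the log2 difference. Nearest to HSPB7 were SMYD1 (2.93, with a dim lenti-control value) and MYOZ1 (2.85), a Z-disc protein of muscle, and only 5 genes lay within 0.1 of it. Nearest to BAG3 were PTPN3 and ALAS1 (both 1.49), to HSPB1 PDLIM4 and PPM1J, and to HSPB8 TACC2 and LYZ (both 1.13). Within 0.1 lay 78 genes for BAG3, 171 for HSPB1 and 208 for HSPB8, so their nearest genes are hardly set apart from the rest of the table.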

How the data were processed

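For 2 Affymetrix arrays of the dog the authors deposited values on the log2 scale, and the submitters' processing notes name RMA. Its version and which arrays were normalized together were not found in the labels or the methods. The table has 1628 probe sets and 19 controls, each with values at least 2-fold apart, and genes with smaller differences are not analysed here. RMA can compress differences at both ends of the intensity range, and no detection calls were used. Precision is limited by the single array per group.

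The lenti-control value was subtracted from the lenti-miR-206 value of each probe set (pandas 2.3.3 and numpy 2.4.6 under Python 3.11.15, figures with matplotlib 3.10.9). A self-test on simulated data covered only a subtraction of this kind. Its outcome was fixed by arithmetic, and it is no check of the other steps. Of the 1628 probe sets, 1182 had 1 gene symbol, 22 had several and 424 had none in the platform annotation. Symbols were updated by Entrez identifier with RefSeq genes of assembly UU_Cfam_GSD_1.0 for 1102 probe sets, and 80 kept their symbol. No build is named for the arrays, so no coordinates are given, and no sequences were used. A gene is represented by its probe set with the highest mean. Named are the 4 genes, every listed chaperone gene in the table, the 2 highest and 2 lowest genes of marker lists, and the 2 genes nearest to each member in difference. The lowest and highest genes of the smooth muscle, fibroblast and neuron lists are not described. FABP4 was chosen after its values were seen. The members and lists were chosen with earlier results of these data known. Alternatives were other probe sets, 2 filters, a 3-fold threshold and the control references.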

Additional observations from a re-analysis of the deposited data

How the results depend on the processing

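No paired analysis was possible because each group has 1 array and no test was made, and for the same reason no replicate could be left out. Relative to the GAPDH controls the log2 differences were -0.10 for HSPB1, 1.59 for HSPB7, -0.18 for HSPB8 and 0.18 for BAG3, and relative to the spike-in controls 2.28, 3.97, 2.21 and 2.57 in the same order. Relative to the median of the cardiomyocyte genes, a reference chosen after seeing the data, they were -0.48, 1.21, -0.56 and -0.20. The value of HSPB8 was 1.27 as the mean of its probe sets and 1.07 with the dimmest. Leaving out s_at and x_at probe sets removed HSPB1 and left 10 of 16 higher chaperone genes and 14 of 22 higher cardiomyocyte genes. At a threshold of 3-fold 2 of the 6 probe sets, 8 chaperone genes, 13 cardiomyocyte genes and 8 of 14 lower adipocyte genes were left. Relative to the GAPDH controls 3 of the 6 probe sets and 10 chaperone genes were higher. Dim probe sets, those whose higher value is under the table median of 7.21, were left out in another setting. HSPB7, BAG3 and the dimmest HSPB8 probe set passed this filter only through the lenti-miR-206 pool, so it is no check of them. Without detection calls, dim values such as those of HSPA2 and HSF2 are not shown to be above background.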

Other observations

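The ubiquitin system to which BAG3 clients can be passed was read by few probe sets in the table, and the genes below were chosen after their values were seen. None of the 50 genes whose symbol marks a proteasome subunit or helper (PSM) was in the table. How many of them have a probe set on the array was not counted, nor was the share of all array genes that passed the 2-fold limit. Their absence, and the numbers in the table for the families below, are therefore no result about these genes. Of 52 genes with a TRIM symbol 2 were in the table, and both are ubiquitin ligases of striated muscle: TRIM63 had 8.82 in the lenti-miR-206 pool and 7.21 in the lenti-control pool, and TRIM54 had 8.20 in the lenti-miR-206 pool and 6.31 in the lenti-control pool. Their log2 differences of 1.61 and 1.89 stay above 0 relative to the GAPDH controls. Among 33 ubiquitin-conjugating enzymes with a UBE2 symbol 4 were in the table, all higher, with a median of 1.54. Of 48 deubiquitinating enzymes with a USP symbol 5 were, also all higher, with a median of 1.25. Of all 823 named genes, 74.2% were higher and the median was 1.17, so these counts of higher genes are not set apart from the table. The highest were USP28 (2.10), from a dim 4.93 in the lenti-control pool that is not shown to be above background, and USP13 (1.97). The USP median turns to -0.052 relative to the GAPDH controls.

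Desmin (DES), the intermediate filament that CRYAB binds, had log2 differences of 1.56 with its brighter probe set and 2.37 with the other. The 2 probe sets thus lay farther apart than the 3 of HSPB8.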
